A study of Mus musculus with 18 samples.

Results

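A set of 46 genes that act in DNA replication and cell division was followed in thymic invariant natural killer T (iNKT) cells of WT and SKG mice. The rule names the genes for their known roles in S phase and mitosis and uses no measured value, though the list was drawn up with earlier results of these data known. All 46 had a read in at least 1 library, and 46 of 46 passed the low-count filter that kept 11118 of the 15582 genes with a read. The SKG strain carries a point mutation in Zap70, the tyrosine kinase that relays T cell receptor signals. A point mutation leaves the read count of its gene uninformative, so the genotype labels could not be checked from the counts. RNA was sequenced from 3 subsets of thymic iNKT cells of both genotypes, on the BALB/c background, with 3 libraries in each of the 6 groups. Mice of both genotypes were the third generation bred from a cross of SKG with BALB/cJ, and the age and sex of the mice behind these libraries are not given in the sources used here. All were sorted as cells that bind the CD1d tetramer, NKT1 as ICOS low and CD49a+, NKT2 as CD49a- and Sdc-1- with high ICOS, CD4 and TCR beta, and NKT17 as CD49a- and Sdc-1+ with high ICOS. The series describes 3 independent experiments in triplicate without tying libraries to mice, so the p-values below measure the spread between these libraries.

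A dividing cell licenses its replication origins by loading the MCM helicase, copies its DNA in S phase, and then condenses and separates its chromosomes in mitosis. Genes for the S phase machinery are typically driven by E2F transcription factors, while genes for mitosis are held off in resting cells by the DREAM complex and switched on later by B-Myb-MuvB and FOXM1 at CHR elements, with NF-Y at CCAAT boxes. In the thymus, iNKT cells divide vigorously soon after positive selection, and division slows as they mature into cytokine-producing subsets. The genes fall into 7 roles by textbook function. These are 2 general markers of dividing cells, 9 genes of replication licensing, 5 of DNA synthesis and nucleotide supply, 3 of the chromatin of newly copied DNA, 9 cyclins and mitotic kinases, 9 genes of chromosome structure, centromere and spindle, and 9 of mitotic exit and cytokinesis. The licensing, DNA synthesis and chromatin roles make up 17 S phase genes, and the last 3 roles make up 27 mitosis genes.

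The promoters of 4 members on which the results turn are shown here, from 250 bases before to 50 bases after the annotated start, as RefSeq gives them on build GRCm38.p6. Mcm5 and Mcm6 encode subunits of the MCM helicase and were lower in SKG cells of both the NKT2 and NKT17 subsets, while Mki67, which encodes the proliferation antigen Ki-67, and Top2a, which encodes topoisomerase II alpha, were lower in SKG NKT17 cells. The windows lie at chr8:75109259-75109558 on the plus strand for Mcm5, and on the minus strand at chr1:128359656-128359955 for Mcm6, chr7:135716330-135716629 for Mki67 and chr11:99024140-99024439 for Top2a. Each is written 5′ to 3′ in the direction of its gene. Capitals mark matches, on either strand, to the letters of an E2F site (TTTCCCGC, TTTCGCGC, TTTGCCGC or TTTGGCGC), a CHR element (TTTGAA or TTCGAA) or a CCAAT box (CCAAT).
Mcm5: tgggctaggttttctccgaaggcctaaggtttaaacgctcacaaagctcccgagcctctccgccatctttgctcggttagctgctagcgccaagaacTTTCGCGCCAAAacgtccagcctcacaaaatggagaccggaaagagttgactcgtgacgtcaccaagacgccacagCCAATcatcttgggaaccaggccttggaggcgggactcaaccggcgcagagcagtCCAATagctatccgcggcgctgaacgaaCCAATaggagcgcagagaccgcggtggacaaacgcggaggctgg
Mcm6: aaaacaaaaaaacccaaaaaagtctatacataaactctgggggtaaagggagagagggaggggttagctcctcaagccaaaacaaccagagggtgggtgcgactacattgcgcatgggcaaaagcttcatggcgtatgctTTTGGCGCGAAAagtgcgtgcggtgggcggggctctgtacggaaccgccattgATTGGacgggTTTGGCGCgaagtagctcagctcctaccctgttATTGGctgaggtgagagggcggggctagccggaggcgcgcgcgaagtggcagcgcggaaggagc
Mki67: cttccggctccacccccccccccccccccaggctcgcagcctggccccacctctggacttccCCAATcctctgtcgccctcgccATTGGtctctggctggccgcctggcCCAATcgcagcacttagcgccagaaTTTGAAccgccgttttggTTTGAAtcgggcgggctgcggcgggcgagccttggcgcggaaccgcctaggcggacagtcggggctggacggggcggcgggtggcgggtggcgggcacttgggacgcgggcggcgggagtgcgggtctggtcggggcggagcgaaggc
Top2a: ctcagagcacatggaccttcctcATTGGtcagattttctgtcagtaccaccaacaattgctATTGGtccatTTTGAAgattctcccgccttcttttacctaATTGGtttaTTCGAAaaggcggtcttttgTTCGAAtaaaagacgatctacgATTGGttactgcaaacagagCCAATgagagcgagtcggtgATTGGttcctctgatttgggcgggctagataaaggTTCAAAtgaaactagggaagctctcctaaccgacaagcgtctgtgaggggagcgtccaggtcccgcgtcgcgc

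The Mcm5 and Mcm6 windows each held a pair of E2F matches that overlap on opposite strands, written as the long capital stretch in each line, and Mcm6 held another E2F match nearer its start. No CHR letters were present in either. The Mki67 window held 2 CHR and 3 CCAAT matches and the Top2a window 4 CHR and 6 CCAAT matches, with no E2F letters in these windows. Among the members, 39 of 46 had a promoter in the table, leaving Gmnn, Mcm4, Ccna2, Tpx2, Aurkb, Kif20a and Stmn1. Of the 39, 4 had 2 promoters. A gene was counted where any of its promoters held the letters, and the same was done for all 27025 genes of the table. E2F letters stood in promoters of 9 of 15 S phase genes (60%), 1 of 23 mitosis genes (4.35%) and 704 of all genes (2.6%). The S phase genes with them were 6 of 7 in licensing, 3 of 3 in chromatin and 0 of 5 in DNA synthesis. CHR letters showed the reverse distribution, with 18 of 23 mitosis genes (78.3%), 2 of 15 S phase genes (13.3%) and 21.7% of all genes. Both CHR and CCAAT letters were found for 17 of 23 mitosis genes (73.9%), for 2 of 15 S phase genes (13.3%) and for 8.61% of all genes. CCAAT letters by themselves were common everywhere, at 82.6%, 66.7% and 41.1% in the same order. All 8 genes of mitotic exit and cytokinesis with a promoter in the table had CHR letters. A match is a description of the letters in the window and not a measured binding site.

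Each library held 4391029 to 8895917 counts in genes, and levels are given as CPM, the usual count of a gene relative to its library total after TMM scaling, with means ± SD over the 3 libraries of a group. The reads carried no molecular identifiers. Markers of the subsets were summed by list, and some single genes were not highest in the subset their list names. The summed level of 6 NKT1 markers was 3620 to 4660 CPM in NKT1 libraries and 182 to 406 CPM elsewhere, with Tbx21 at 548 and 480 CPM in WT and SKG NKT1. The sum of 6 NKT17 markers was 2170 to 2260 CPM in NKT17 libraries and at most 72.2 CPM elsewhere, and Zbtb16, which encodes PLZF, was highest in NKT2 at 194 and 193 CPM. The NKT2 list separated its subset less cleanly, at 1890 to 2440 CPM in NKT2 libraries against 1540 to 1900 CPM in NKT17. Within the lists, Gata3 was at 268, 269 and 268 CPM in WT NKT1, NKT2 and NKT17, Klrb1c at 44.3 CPM in WT NKT1 and 38.9 CPM in WT NKT17, and Nrp1 at 36 CPM in WT NKT2 and 16.8 CPM in WT NKT17. Of 7 genes of double-positive thymocytes, Rag1, Rag2, Dntt and Arpp21 had group means of 0 to 0.18 CPM in all groups. Cd8b1, Cd8a and Ptcra, also on that list, had their highest group means in SKG NKT17, at 22.5, 5.37 and 1.19 CPM.

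Levels of the members differed widely. Per kilobase of exon, the most abundant member over the 18 libraries was Pcna, the sliding clamp of the replication fork, at a level of 84.2 CPM per kb, followed by Stmn1, which encodes the microtubule regulator stathmin, at 68.5 and Mcm2 at 62.8 CPM per kb. The least abundant were the centromere genes Cenpe and Cenpf at 0.707 and 0.681 CPM per kb and the cytokinesis gene Anln, for anillin, at 0.445 CPM per kb. The median was 4.57 CPM per kb over the members and 8.99 CPM per kb over the 10846 tested genes with a length. Pcna stood above 91.3% of tested genes on this scale and Mki67 above only 18.1%. On build NCBIM37 the members lie on 17 chromosomes, with at most 7 on any of them, among them, on the minus strand, Mki67 at chr7:142881471-142908062, Top2a at chr11:98854257-98885503, Ccnb1 at chr13:101548605-101556525 and Pcna at chr2:132074898-132079050 and, on the plus strand, Stmn1 at chr4:134024235-134029758 and Mcm5 at chr8:77633427-77652338. These gene positions and exon lengths are on another build than the promoters above.

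WT NKT2 cells held the highest mean level of 44 of the 46 genes, and SKG NKT17 cells the lowest mean level of 40. The exceptions at the top were Cdt1, the loader of the MCM helicase, which was highest in WT NKT1, and the kinase gene Melk, which was highest in SKG NKT2. At the bottom, Uhrf1, Ezh2 and Melk were lowest in WT NKT1, and Tk1, Hells and Kif20a were lowest in SKG NKT1. Mcm5 shows how far the libraries of each group stood apart. It was at 247, 258 and 249.8 CPM in WT NKT2, 102, 151 and 150.0 CPM in WT NKT1 and 152, 119 and 134 CPM in WT NKT17. The SKG libraries held 106, 100.2 and 132 CPM of Mcm5 in NKT2, 132, 106 and 96.5 CPM in NKT1 and 99.2, 65.1 and 55.9 CPM in NKT17. The 3 WT NKT2 libraries therefore lay together above all 15 others, and the SKG NKT2 libraries were within the range of the NKT1 libraries.

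**Figure D1:**
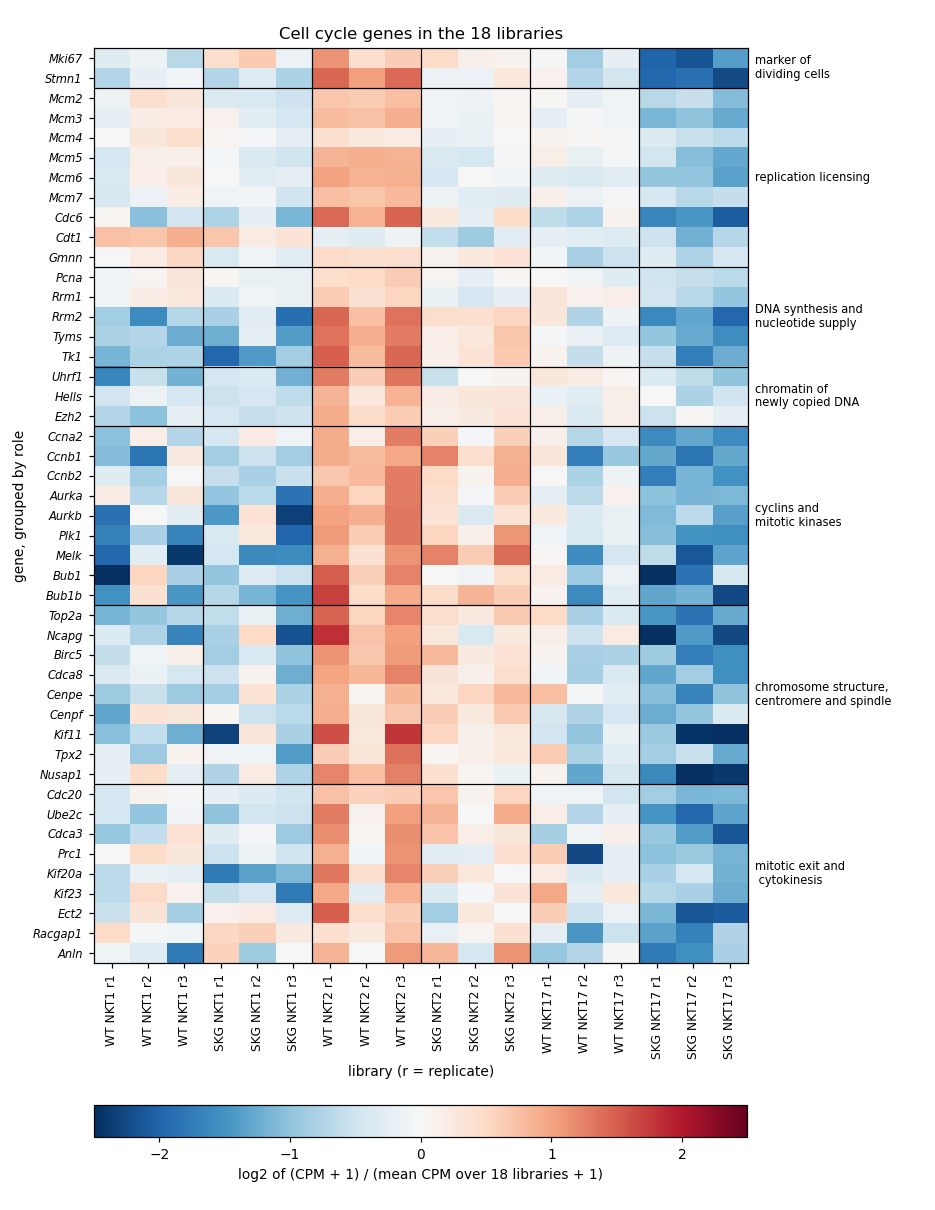
Level of each of the 46 genes (rows, grouped by role) in each of the 18 libraries (columns), as the log2 ratio of CPM + 1 to the gene's mean CPM over the 18 libraries + 1. Red is above and blue below that mean, and values past an end of the scale take its end colour. The WT NKT2 columns are red in nearly every row, and the SKG NKT17 columns are blue in nearly every row.

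Summed over the 17 S phase genes, each WT NKT2 library held 2745, 2454 and 2738 CPM and each SKG NKT2 library 1482, 1452 and 1653 CPM, so that the SKG mean was 57.8% of the WT mean. In NKT17 the same sum was 1634, 1425 and 1494 CPM in WT and 1046, 943 and 834 CPM in SKG, or 62% of WT. NKT1 libraries held 1378, 1718 and 1857 CPM in WT and 1483, 1382 and 1222 CPM in SKG, or 82.5% of WT. The genotypes thus did not overlap in NKT2 and NKT17 and overlapped in NKT1.

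The sum over the 27 mitosis genes was 877, 562 and 888 CPM in WT NKT2 and 568, 438 and 592 CPM in SKG NKT2, or 68.7% of WT, with WT replicate 2 below 2 of the SKG libraries. In NKT17 it was 443, 214 and 309.5 CPM in WT and 152, 134 and 136 CPM in SKG, or 43.7% of WT, with no overlap. In NKT1 the genotypes were mixed, at 249, 323 and 315 CPM in WT and 261, 352 and 211 CPM in SKG. The SKG NKT17 libraries were the tightest group of all, with a mean mitosis sum of 140.6 ± 9.88 CPM. These sums are given as a description, without a test, and the abundant genes of each list weigh most in them. In bulk RNA, fewer dividing cells in a sample and less of these mRNAs in each dividing cell cannot be told apart.

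**Figure D2:**
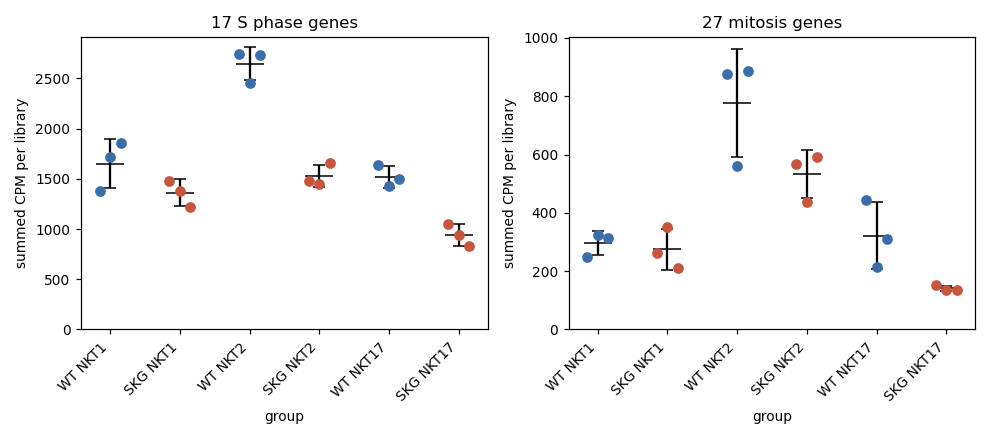
Summed CPM of the 17 S phase genes (left) and of the 27 mitosis genes (right) in each library, by group, on linear axes from 0. Points are libraries (blue WT, red SKG), the long bar is the group mean and the whiskers are 1 SD (n = 3). The S phase sums of WT NKT2 lie at 2454 to 2745 CPM, above every other library, and the mitosis sums of SKG NKT17 lie at 134 to 152 CPM, below every other library.

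The effect of the SKG mutation on these genes was then tested within each subset. A gene was called different at an edgeR adjusted p under 0.1 over all genes tested together with a fold change of at least 1.5. The share of all tested genes called in the same direction is given beside the edgeR counts of members. None of the 46 genes was called higher in SKG in any subset by edgeR with all libraries. Without SKG NKT1 replicate 3, Plk1 was called higher in SKG NKT1 (log2 fold change 1.53 with an SE of 0.41, adjusted p = 0.0614), a gene singled out after its values were seen. Called lower were 3 in NKT1, 12 in NKT2 and 26 in NKT17. DESeq2 likewise called none higher, and 3, 13 and 28 lower. At an unadjusted p under 0.05 in either direction, edgeR gave 9 members in NKT1 (19.6%), 21 in NKT2 (45.7%) and 35 in NKT17 (76.1%), against 13.9%, 20.9% and 21.6% of all tested genes.

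In NKT2, 12 members were lower in SKG against 4.05% of all tested genes, and 0 were higher against 3.90%. The median log2 fold change was -0.68 over the members and -0.004 over all tested genes, and 45 of 46 members had a log2 fold change below 0. In 23 members all SKG libraries lay below all WT libraries, against 16.2% of tested genes. The calls fell on S phase, with 10 of 17 S phase genes (6 of 9 in licensing, 3 of 5 in DNA synthesis and 1 of 3 in chromatin) and with only 1 of 27 mitosis genes, Nusap1, a spindle assembly factor. The remaining call was Stmn1. Of the 12 calls, 8 held at the same thresholds in every alternative fit that tested the gene. Those of Cdc6, Tyms, Tk1 and Nusap1 were lost in some.

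The MCM helicase genes carried most of the licensing calls. Mcm5 fell from a mean of 252 ± 5.63 CPM in WT NKT2 to 113 ± 17.2 CPM in SKG NKT2 (log2 fold change -1.15 with an SE of 0.19, adjusted p = 0.000299 by edgeR). Mcm6 was at 337, 303 and 308 CPM in the WT and 124, 166 and 159 CPM in the SKG libraries (log2 fold change -1.08 with an SE of 0.15, adjusted p = 3.7e-05 by edgeR). For both genes every SKG library was below every WT library by a wide margin. Mcm2, the most abundant licensing gene, was at 343, 328 and 357 CPM in WT and 198, 195 and 221 CPM in SKG (log2 fold change -0.74 with an SE of 0.13, adjusted p = 0.000636 by edgeR). Mcm3 and Mcm7 were also called lower, by 1.82-fold and 2.00-fold. Mcm4 passed the p threshold but not the fold minimum, at 1.33-fold lower (adjusted p = 0.0371 by edgeR). Cdc6, which loads the helicase with Cdt1, was at 45.99, 30.9 and 46.9 CPM in WT and 19.8, 14.3 and 23.0 CPM in SKG (log2 fold change -1.11 with an SE of 0.33, adjusted p = 0.0376 by edgeR). Its call was lost without any of 4 libraries, WT replicates 1 and 3 and SKG replicates 1 and 2. Cdt1 itself and the licensing inhibitor gene Gmnn, which encodes geminin, were not called, with log2 fold changes of -0.37 ± 0.18 and -0.20 ± 0.19 SE.

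Pcna was lower in each SKG NKT2 library, at 211, 172 and 207 CPM against 274, 286 and 312 CPM in WT, and missed the call only through its fold of 1.48 (log2 fold change -0.56 with an SE of 0.12, adjusted p = 0.0032 by edgeR). Rrm1, the large subunit of the ribonucleotide reductase that makes deoxynucleotides, was 1.74-fold lower, and the thymidylate synthase gene Tyms and the thymidine kinase gene Tk1 were called at 1.76-fold and 1.88-fold lower. The Tyms and Tk1 calls had adjusted p of 0.0632 and 0.0876 by edgeR and were each lost in 5 of 13 alternative fits. Rrm2 was at 167, 104 and 158 CPM in WT and 83.2, 80.3 and 89.3 CPM in SKG, without overlap, and was not called (adjusted p = 0.224). Uhrf1, which guides the copying of DNA methylation onto new strands, was at 92.2, 56.5 and 94.4 CPM in WT and 24.7, 36.4 and 39.2 CPM in SKG (log2 fold change -1.27 with an SE of 0.28, adjusted p = 0.00399 by edgeR). Ezh2, the histone methyltransferase of the Polycomb repressor, was the most abundant chromatin member and was not called, at 72.3 ± 12.1 and 52.8 ± 3.70 CPM. Stmn1 showed the largest log2 fold change among the calls in NKT2. Its level was 360.1, 270.2 and 354 CPM in WT and 119, 119 and 157 CPM in SKG (log2 fold change -1.31 with an SE of 0.21, adjusted p = 0.000368 by edgeR).

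Among the mitosis genes of NKT2 the standard errors were larger. Ccnb1, the mitotic cyclin B1, was at 47.2, 42.6 and 48.7 CPM in WT and 58.6, 33.1 and 46.1 CPM in SKG NKT2, with nearly equal means and the highest value in an SKG library (log2 fold change -0.01 with an SE of 0.47, adjusted p = 1 by edgeR). The sign of this near-zero difference turned in 5 alternatives. Top2a was at 133, 70.6 and 114 CPM in WT and 66.1, 57.4 and 76.6 CPM in SKG, and Mki67 at 37.4, 22.7 and 26.0 CPM in WT and 23.6, 18.4 and 17.8 CPM in SKG. In both genes the lowest WT library overlapped the highest SKG library, and neither was called (adjusted p = 0.225 and 0.338). Cdc20, the activator of the anaphase-promoting complex, was at 40.3 ± 2.17 and 35.4 ± 7.48 CPM in WT and SKG and was not called (adjusted p = 0.685). The median log2 fold change was -0.80 over the S phase genes and -0.52 over the mitosis genes, and the SE of single mitosis genes was up to 0.86. A mitosis gene with such an SE needed a larger difference to be called than an MCM gene, whose SE lay between 0.12 and 0.19.

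In NKT17, 26 members were lower in SKG against 4.54% of all tested genes, and 0 were higher against 3.83%. All 46 had a log2 fold change below 0, with a median of -0.99 against 0.005 over all tested genes. In 32 members the SKG libraries lay entirely below the WT libraries, against 13.9% of tested genes. The calls covered S phase and mitosis alike, with 10 of 17 S phase genes and 14 of 27 mitosis genes, and included both general markers. Of the 26 calls, 15 held at the same thresholds in every alternative fit that tested the gene. By role they were 5 of 9 in licensing, 4 of 5 in DNA synthesis, 1 of 3 in chromatin, 3 of 9 cyclins and kinases, 6 of 9 in chromosome structure and spindle and 5 of 9 in mitotic exit.

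Mki67 was at 16.0, 8.69 and 14.3 CPM in the WT NKT17 libraries and 3.40, 2.97 and 5.82 CPM in the SKG libraries (log2 fold change -1.68 with an SE of 0.34, adjusted p = 0.00195 by edgeR). Stmn1 was at 142, 79.0 and 95.1 CPM in WT and 33.1, 35.2 and 27.2 CPM in SKG (log2 fold change -1.72 with an SE of 0.22, adjusted p = 3.44e-05 by edgeR). For each of these general markers the highest SKG library was well below the lowest WT library. Top2a, which untangles copied chromosomes, was at 68.9, 27.1 and 37.6 CPM in WT and 16.9, 12.7 and 19.7 CPM in SKG (log2 fold change -1.43 with an SE of 0.33, adjusted p = 0.00907 by edgeR). Its WT values were spread, with replicate 1 far above replicates 2 and 3, and replicate 1 also held the highest mitosis sum of the WT NKT17 libraries.

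The largest difference in NKT17 was in Ncapg, a subunit of the condensin complex, at 9.18, 5.39 and 9.61 CPM in WT and 0.425, 2.44 and 0.938 CPM in SKG (log2 fold change -2.68 with an SE of 0.71, adjusted p = 0.02 by edgeR). Ect2, the exchange factor that starts the cleavage furrow, was at 12.9, 5.22 and 7.14 CPM in WT and 3.12, 1.05 and 1.13 CPM in SKG (log2 fold change -2.19 with an SE of 0.53, adjusted p = 0.00913 by edgeR). Nusap1 fell to a mean of 3.01 ± 1.45 CPM from 11.8 ± 5.65 CPM (log2 fold change -1.94 with an SE of 0.41, adjusted p = 0.00348 by edgeR), and the kinetochore motor gene Cenpe to 1.81 ± 0.662 CPM from 6.58 ± 2.97 CPM (log2 fold change -1.84 with an SE of 0.50, adjusted p = 0.0235 by edgeR). These genes were of low abundance, and the SKG libraries held 3, 14 and 5 reads of Ncapg and 22, 6 and 6 reads of Ect2. The Ncapg call was lost without SKG replicate 1 and the Cenpe call without WT replicate 1. Cdc20, the most abundant gene of mitotic exit, fell by less, at 13.5, 11.0 and 11.1 CPM in SKG against 24.0, 23.5 and 18.2 CPM in WT (log2 fold change -0.88 with an SE of 0.22, adjusted p = 0.0113 by edgeR). Ccna2 and Ccnb2, which encode cyclins A2 and B2, were called at 2.42-fold and 2.45-fold lower. Ccnb1 was not called, at 30.3, 6.61 and 12.1 CPM in WT and 9.49, 6.11 and 9.38 CPM in SKG, with WT libraries that ranged widely (log2 fold change -0.95 with an SE of 0.52, adjusted p = 0.315 by edgeR).

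Among the S phase genes of NKT17, Mcm5 was at 135 ± 16.1 CPM in WT and 73.4 ± 22.8 CPM in SKG (log2 fold change -0.87 with an SE of 0.19, adjusted p = 0.00432 by edgeR), and Mcm2 at 197 ± 18.5 and 124 ± 22.3 CPM (log2 fold change -0.67 with an SE of 0.13, adjusted p = 0.00215 by edgeR). The Mcm2 call was lost without SKG replicate 3. Mcm3 and Mcm6 were 2.03-fold and 1.72-fold lower, while Mcm4 and Mcm7 passed the p threshold at 1.46-fold each, under the fold minimum. Pcna was in the same position, at 202, 189 and 163 CPM in WT and 142, 136 and 126 CPM in SKG (log2 fold change -0.46 with an SE of 0.12, adjusted p = 0.0184 by edgeR). Rrm2 and Cdc6 were the S phase calls of largest fold, at 2.83-fold and 2.80-fold lower. Gmnn and Ezh2 did not pass, with log2 fold changes of -0.05 ± 0.20 and -0.24 ± 0.20 SE.

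Of the 12 members called in NKT2, 11 were also called in NKT17 (91.7%), which is 42.3% of the 26 called there. This overlap was not counted over all tested genes, so it is not shown to be particular to the members. The shared ones were Stmn1, Mcm2, Mcm3, Mcm5, Mcm6, Cdc6, Rrm1, Tyms, Tk1, Uhrf1 and Nusap1. The 15 called in NKT17 and not in NKT2 included Mki67, Rrm2, Top2a, Plk1, Ncapg, Birc5, Cdc20 and Ube2c. A call in one subset and not in the other does not show that the effects differ, and the test of that difference is given below. In all, 17 members were called in no subset. These were Mcm4, Cdt1, Gmnn, Pcna, Hells, Ezh2, Ccnb1, Aurkb, Melk, Bub1, Bub1b, Cenpf, Kif11, Tpx2, Prc1, Racgap1 and Anln. Among them Bub1b, a kinase of the spindle checkpoint, had a log2 fold change of -1.25 ± 0.58 SE in NKT17, and Kif11, a spindle motor, of -1.48 ± 0.65 SE, neither of them called. Hells, a chromatin remodeler, had -0.31 ± 0.23 SE in the same comparison. Melk was the member with a log2 fold change above 0 in NKT2, at 18.3, 11.6 and 20.4 CPM in SKG and 14.1, 9.61 and 16.6 CPM in WT NKT2.

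In NKT1, 3 members were lower in SKG against 1.82% of tested genes and 0 were higher against 1.46%. The median log2 fold change was -0.21 over the members and -0.007 over all tested genes. All SKG libraries lay below all WT libraries in 5 members, against 8.68% of tested genes. The calls were Mcm2, Aurka and Kif20a. Mcm2 was at 195, 282 and 256 CPM in WT NKT1 and 164, 163 and 148 CPM in SKG NKT1 (log2 fold change -0.62 with an SE of 0.13, adjusted p = 0.0098 by edgeR). Aurka, a kinase of the spindle poles, was at 14.5, 7.26 and 15.4 CPM in WT and 5.95, 7.498 and 2.77 CPM in SKG, with overlap (log2 fold change -1.21 with an SE of 0.37, adjusted p = 0.0931 by edgeR). Kif20a, a motor of cytokinesis, was at 7.97, 11.7 and 11.0 CPM in WT and 3.16, 4.58 and 5.54 CPM in SKG (log2 fold change -1.19 with an SE of 0.34, adjusted p = 0.068 by edgeR). No call held under all alternatives. The count was 0 without WT replicate 3, and 1 without WT replicate 2 or without SKG replicate 1.

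Of the 27 mitosis genes in NKT1, 17 had a log2 fold change below 0 and 10 above, with a median of -0.15. The general marker Mki67 was at 22.9, 26.9 and 14.9 CPM in SKG and 13.4, 15.1 and 9.92 CPM in WT (log2 fold change 0.75 with an SE of 0.31, adjusted p = 0.257 by edgeR), with SKG replicate 3 inside the WT range. Top2a was at 31.0, 42.7 and 20.3 CPM in SKG and 21.1, 24.2 and 29.2 CPM in WT. Mcm5, Pcna and Cdc20 had log2 fold changes of -0.27 ± 0.19, -0.20 ± 0.12 and -0.23 ± 0.21 SE, and Ezh2, Ccnb1 and Stmn1 of 0.13 ± 0.21, -0.11 ± 0.51 and -0.28 ± 0.21 SE. None of these 6 was called. The signs for Ezh2 and Ccnb1 turned in some alternatives.

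**Figure D3:**
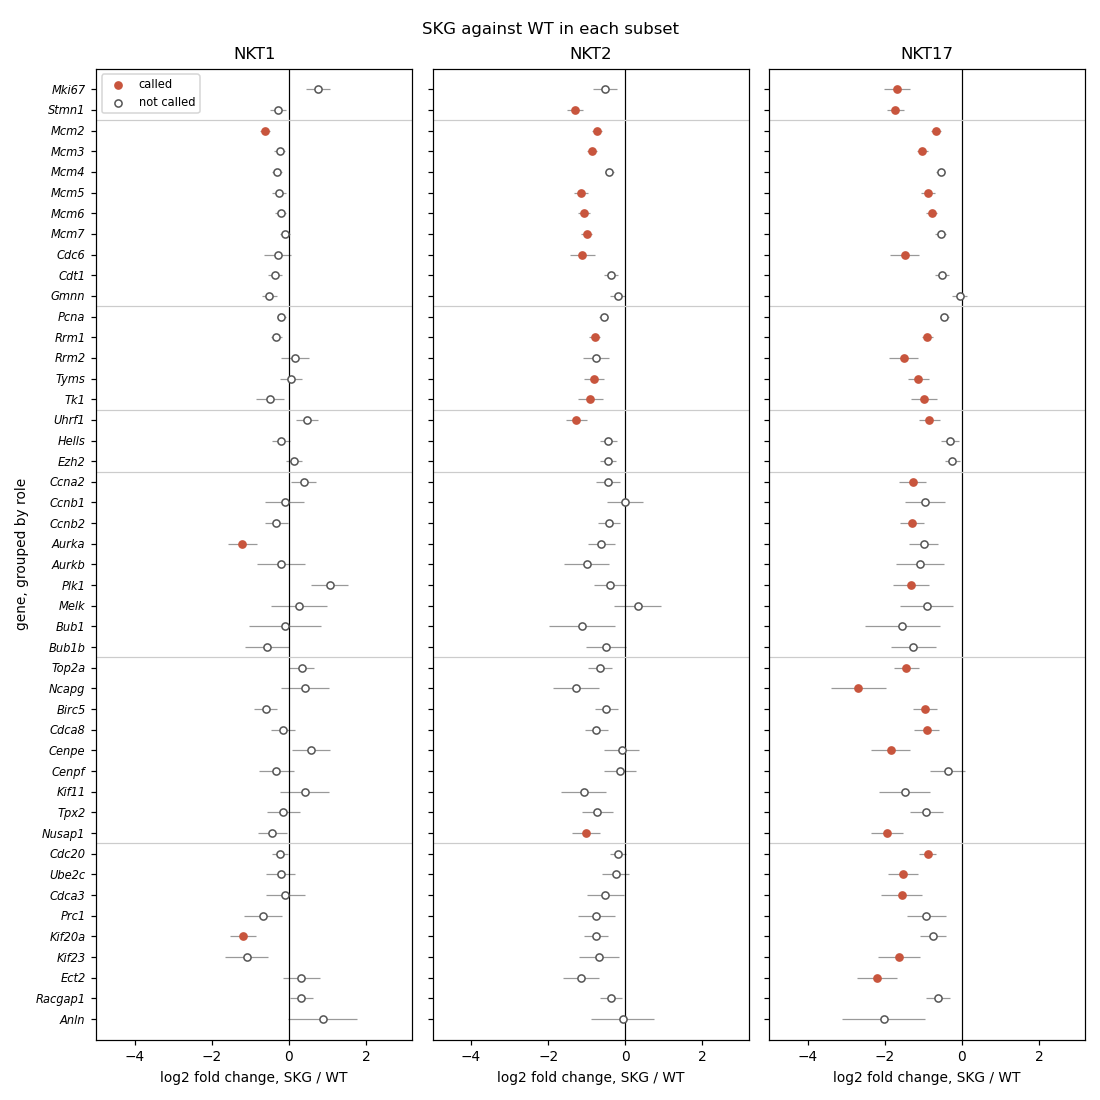
Log2 fold change of SKG against WT (x axis) for each of the 46 genes (rows, by role) in NKT1, NKT2 and NKT17, with bars of 1 SE from the edgeR fit and filled red points for genes called at adjusted p under 0.1 and at least 1.5-fold. In NKT1 points lie on both sides of 0, in NKT2 the red points gather in the upper, S phase rows, and in NKT17 all points lie below 0 with red points in both the upper and lower rows.

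Whether the effect of the mutation differed between subsets was tested with interaction terms of the same fit. Between NKT2 and NKT1, 5 members had a more negative SKG effect in NKT2, against 1.78% of tested genes called in that direction and 2.09% in the other, where no member was called. These were Uhrf1, Stmn1, Mcm7, Mcm5 and Mcm6. Uhrf1 differed most (difference of log2 fold changes -1.74 ± 0.40 SE, edgeR adjusted p = 0.0157). Its mean was 23.4 ± 7.00 CPM in SKG NKT1 and 17.1 ± 6.73 CPM in WT NKT1, opposite in direction to NKT2. For Mcm5 the difference was -0.89 ± 0.26 SE (adjusted p = 0.0812), and for Stmn1 it was -1.03 ± 0.30 SE (adjusted p = 0.0767). The count moved between 3 and 8 when single libraries were left out, with 8 without SKG NKT1 replicate 3 and 3 without WT NKT1 replicate 1, SKG NKT1 replicate 1 or 2, WT NKT2 replicate 1 or 3, or SKG NKT2 replicate 1 or 2.

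Between NKT17 and NKT1, 10 members had a more negative SKG effect in NKT17, against 2.12% of tested genes, and none a less negative one, against 2.05%. They were Mki67, Stmn1, Mcm3, Uhrf1, Ccna2, Plk1, Top2a, Ncapg, Cenpe and Ect2. Mki67 had the smallest adjusted p of these, with a difference of -2.43 ± 0.46 SE (edgeR adjusted p = 0.00341), being higher by mean in SKG NKT1 and lower in SKG NKT17. For Ncapg the difference was -3.10 ± 0.95 SE (adjusted p = 0.0911) and for Ect2 it was -2.52 ± 0.71 SE (adjusted p = 0.0606). Plk1, the polo-like kinase that drives entry into mitosis, was at 8.36, 13.5 and 2.08 CPM in SKG NKT1 against 2.78, 5.92 and 2.83 CPM in WT NKT1, and at 4.82, 3.31 and 3.19 CPM in SKG NKT17 against 10.3, 8.35 and 9.74 CPM in WT NKT17 (difference -2.37 ± 0.67 SE, adjusted p = 0.0608). The count was 3 without SKG NKT1 replicate 2, 4 without WT NKT1 replicate 1, WT NKT17 replicate 1 or SKG NKT17 replicate 3, 5 without SKG NKT1 replicate 1, 6 without SKG NKT17 replicate 2 and up to 13 without WT NKT17 replicate 2.

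Between NKT17 and NKT2, no member was called in either direction by edgeR or by DESeq2, against 1.05% of tested genes lower and 1.14% higher. At an unadjusted p under 0.05 by edgeR there were 6 members (13%), against 10.7% of all tested genes. The median difference was 0.08 over the S phase genes, -0.77 over the mitosis genes and -0.009 over all tested genes. The effect was more negative in NKT17 for 26 of 27 mitosis genes and for 5669 of 11118 tested genes. No single member was thus shown to respond differently in NKT17 and NKT2.

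**Figure D4:**
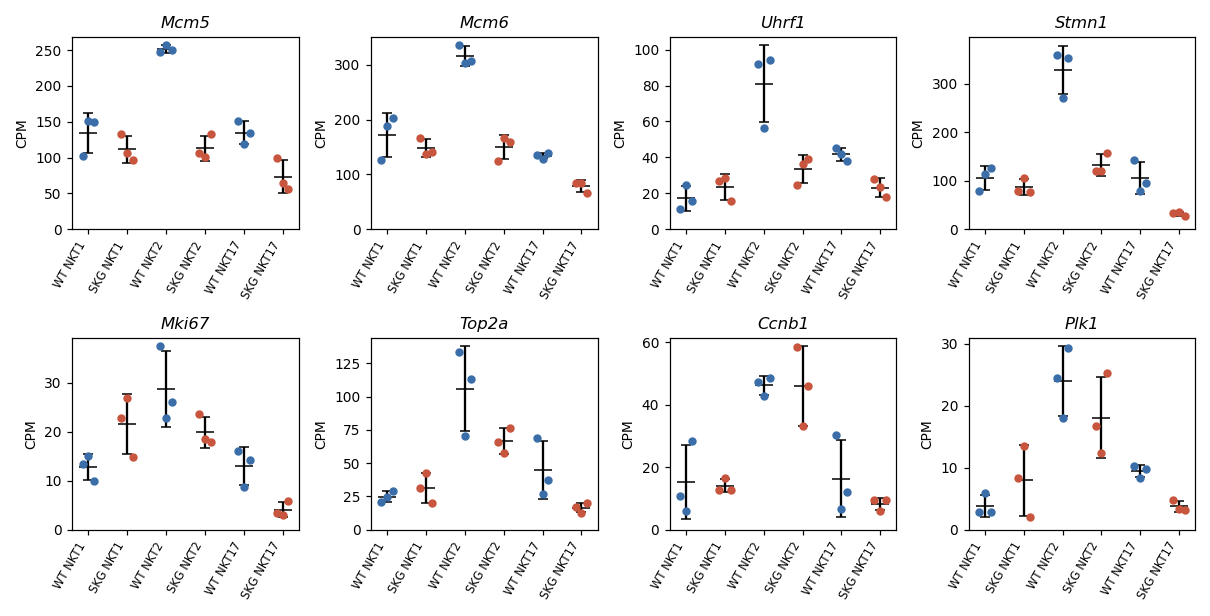
CPM of 8 members in each library, by group, on linear axes from 0, with points for libraries (blue WT, red SKG), a bar for the group mean and whiskers of 1 SD (n = 3). Mcm5, Mcm6, Uhrf1 and Stmn1 stand high in WT NKT2 alone, Mki67, Top2a and Plk1 have their lowest means in SKG NKT17, and Ccnb1 is high in both genotypes of NKT2.

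In WT mice the subsets themselves differed in these genes. Against NKT2, NKT1 cells had 34 members lower (tested genes 13.7%) and 1 higher (tested genes 13.7%), with a median log2 fold change of -1.33. The calls included 21 of 27 mitosis genes and 11 lower among 17 S phase genes. Plk1 was at 2.78, 5.92 and 2.83 CPM in WT NKT1 and 24.5, 18.0 and 29.3 CPM in WT NKT2 (log2 fold change -2.65 with an SE of 0.47, adjusted p = 0.000125 by edgeR). Melk, Kif11, Ncapg and Tk1 followed, each at 4.92-fold to 5.67-fold lower. Top2a was 4.26-fold, Stmn1 3.10-fold, Ccnb1 3.05-fold, Ezh2 2.55-fold, Mki67 2.24-fold, Mcm5 1.88-fold and Cdc20 1.72-fold lower. Cdt1 went the other way, at 102, 99.7 and 116 CPM in WT NKT1 and 52.1, 49.5 and 55.5 CPM in WT NKT2 (log2 fold change 1.01 with an SE of 0.18, adjusted p = 9.59e-05 by edgeR). No other member was higher in NKT1 than in NKT2 by mean.

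WT NKT17 cells also stood below NKT2, with 33 members lower (tested genes 8.97%), 0 higher (tested genes 11.0%) and a median of -1.20. The lower calls took in 14 of 17 S phase genes and 17 of 27 mitosis genes. Kif11, the motor that builds the bipolar spindle, was at 9.76, 6.61 and 12.5 CPM in WT NKT17 and 45.2, 17.1 and 50.8 CPM in WT NKT2 (log2 fold change -1.96 with an SE of 0.60, adjusted p = 0.0254 by edgeR). Cdc6, Bub1b, Stmn1 and Nusap1 were 3.06-fold to 3.31-fold lower. Mcm2, Mcm5 and Pcna were 1.74-fold, 1.87-fold and 1.58-fold lower. In this pair of groups, libraries with the same number in their titles deviated together, and a fit with that number as a block called 36 members lower, the same 33 plus Ncapg, Tpx2 and Prc1.

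Fewer members separated NKT1 from NKT17 in WT mice, with 3 members higher in NKT1 (tested genes 11.2%), 8 lower (tested genes 13.5%) and a median of -0.11. Called in either direction were 11 of 46 members, beside 24.7% of all tested genes. At an unadjusted p under 0.05, edgeR gave 13 members (28.3%), below the 36.4% of all tested genes. By these counts the members did not stand apart from other genes. The higher ones were 2 parts of the licensing switch, Cdt1 (log2 fold change 1.08 with an SE of 0.18, adjusted p = 4.15e-05 by edgeR) and Gmnn (log2 fold change 0.70 with an SE of 0.20, adjusted p = 0.00877 by edgeR), and the cytokinesis regulator Racgap1 (log2 fold change 0.84 with an SE of 0.30, adjusted p = 0.0407 by edgeR). Gmnn was at 39.0, 45.2 and 56.7 CPM in NKT1 and 37.7, 21.9 and 26.9 CPM in NKT17, without overlap. The lower calls of largest fold were Plk1, Uhrf1, Cenpe, Rrm2 and Top2a, of which Uhrf1 was at 11.2, 24.4 and 15.6 CPM in NKT1 and 45.1, 41.9 and 38.0 CPM in NKT17 (log2 fold change -1.30 with an SE of 0.28, adjusted p = 0.00117 by edgeR). The count of 11 fell to 6 without WT NKT1 replicate 1 or 3 and to 7 without WT NKT17 replicate 1.

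In SKG mice NKT1 stood above NKT17 in many members. NKT1 had 20 members higher than NKT17 (tested genes 10.2%) and 0 lower (tested genes 12.5%), with a median of 0.74. The 20 were 13 mitosis genes, 5 S phase genes and both general markers. Mki67 was at 22.9, 26.9 and 14.9 CPM in SKG NKT1 and 3.40, 2.97 and 5.82 CPM in SKG NKT17 (log2 fold change 2.41 with an SE of 0.34, adjusted p = 6.45e-06 by edgeR). Racgap1 was at 31.0, 32.9 and 24.9 and 7.79, 5.93 and 12.2 CPM (log2 fold change 1.78 with an SE of 0.31, adjusted p = 0.000119 by edgeR), and Ncapg, Ect2 and Nusap1 were 4.05-fold to 4.55-fold higher in NKT1. Stmn1, Top2a, Cdc20 and Mcm5 were higher by 2.73-fold, 1.90-fold, 1.67-fold and 1.52-fold. The count fell to 13 without SKG NKT1 replicate 2, the library with the highest mitosis sum among SKG NKT1.

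SKG NKT17 had 35 members lower than SKG NKT2 (tested genes 8.27%) and 0 higher (tested genes 10.5%), with a median of -1.63. In 44 of 46 members all SKG NKT17 libraries lay below all SKG NKT2 libraries, against 2117 of 11118 tested genes. Ccnb1 was at 9.49, 6.11 and 9.38 CPM in SKG NKT17 and 58.6, 33.1 and 46.1 CPM in SKG NKT2 (log2 fold change -2.46 with an SE of 0.52, adjusted p = 0.00227 by edgeR). Ube2c, the ubiquitin-conjugating enzyme of mitotic exit, was at 4.82, 3.14 and 5.44 and 28.2, 15.3 and 29.7 CPM (log2 fold change -2.44 with an SE of 0.38, adjusted p = 4.08e-05 by edgeR). Ncapg, Melk and Nusap1 were 5.76-fold to 6.93-fold lower. Of the mitosis genes 23 of 27 were called, and of the S phase genes 10 of 17.

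Between SKG NKT1 and SKG NKT2 fewer members were called than between the WT groups, with 19 lower in NKT1 (tested genes 8.63%), 1 higher (tested genes 10.0%) and a median of -0.82. Calls in either direction over all tested genes were also fewer, at 18.7% in SKG and 27.5% in WT. Melk, Bub1b, Kif20a, Tk1 and Ccnb1 had the largest folds. Ccnb1 was at 12.8, 16.4 and 12.8 CPM in SKG NKT1 against the SKG NKT2 values above (log2 fold change -1.71 with an SE of 0.50, adjusted p = 0.0216 by edgeR). Kif20a was 3.72-fold and Melk 5.92-fold lower in NKT1. The member higher in NKT1 was again Cdt1, at 98.8, 70.4 and 77.3 CPM in SKG NKT1 and 39.4, 32.5 and 49.6 CPM in SKG NKT2 (log2 fold change 1.02 with an SE of 0.18, adjusted p = 0.000167 by edgeR). Among the MCM genes none was called here, and the group means of Mcm5 were 112 ± 18.5 and 113 ± 17.2 CPM. The subset comparisons within a genotype share libraries with each other and with the comparisons of genotypes, so they are not independent views of the same genes.

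A further 102 genes of the cell cycle, sorted into 6 roles, were read beside the members, and 100 of them were tested. In NKT2, 18 were lower in SKG (tested genes 4.05%) and 1 higher (tested genes 3.90%), with a median log2 fold change of -0.49, and in NKT17 19 were lower (tested genes 4.54%) and 3 higher (tested genes 3.83%), with a median of -0.45. In NKT1 none was called in either direction by edgeR, while 17 had an unadjusted p under 0.05, against 13.9% of all tested genes, and 3 passed the adjusted p but not the fold minimum. The role nearest to the S phase members, origin firing and the replication fork, had 9 of 27 lower in NKT2 and 6 of 27 in NKT17. In NKT2 these were led by Rfc5, a subunit of the clamp loader (-0.66 ± 0.13 SE, edgeR adjusted p = 0.00175), the DNA ligase gene Lig1 (-1.26 ± 0.25 SE, adjusted p = 0.00197) and the flap endonuclease gene Fen1 (-0.72 ± 0.15 SE, adjusted p = 0.00304). Lig1 was at 71.1, 49.3 and 72.6 CPM in WT NKT2 and 25.3, 23.5 and 31.3 CPM in SKG NKT2, without overlap. In NKT17 they were led by Dut, which keeps uracil out of DNA, at 149.9, 134 and 110.5 CPM in WT and 76.9, 60.02 and 58.2 CPM in SKG (-1.01 ± 0.14 SE, adjusted p = 3.75e-05), followed by Cdc45 and Mcm10. The SKG effect on Dut was more negative in NKT2 and in NKT17 than in NKT1 (differences -0.80 ± 0.20 and -1.22 ± 0.20 SE, adjusted p = 0.0279 and 0.000814).

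Of the 28 kinetochore, condensin and spindle genes, 5 were lower in SKG NKT2 (tested genes 4.05%) and 6 in SKG NKT17 (tested genes 4.54%). In SKG NKT17 1 was higher (tested genes 3.83%). Cenpa, the histone variant that marks centromeres, was lower in both, at 18.8, 19.0 and 21.8 CPM in SKG NKT17 against 59.5, 49.2 and 45.6 CPM in WT NKT17 (log2 fold change -1.37 with an SE of 0.17, adjusted p = 1e-05 by edgeR). The gene that was higher was Pttg1, which encodes the anaphase inhibitor securin, at 32.7, 38.6 and 25.9 CPM in SKG and 18.0, 17.6 and 11.7 CPM in WT NKT17 (log2 fold change 1.05 with an SE of 0.21, adjusted p = 0.00208 by edgeR). Pttg1 is itself a gene of dividing cells, and its log2 fold change was opposite in sign to that of all 46 members in NKT17. The checkpoint genes had 3 of 11 lower in each of these subsets (tested genes 4.05% in NKT2 and 4.54% in NKT17). They included Chek1 in both (-1.62 ± 0.54 and -1.91 ± 0.59 SE in NKT2 and NKT17), Wee1 in NKT2 and the phosphatase gene Cdc25b in NKT17, which was at 146, 99.6 and 89.9 CPM in WT and 33.4, 28.8 and 36.2 CPM in SKG (log2 fold change -1.77 with an SE of 0.23, adjusted p = 2.52e-05 by edgeR).

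The genes that govern entry into the cycle did not move as a block. Among 9 G1 cyclins and cyclin-dependent kinases none was called in NKT2 by edgeR at these thresholds, while 3 had an unadjusted p under 0.05 and 2 passed the adjusted p without the fold minimum. In NKT17 Cdk1, Ccne1 and Cdk2 were lower (tested genes 4.54%) and Ccnd3, a D-type cyclin, was higher (tested genes 3.83%). Cdk1, the mitotic kinase, was at 30.1, 20.2 and 20.3 CPM in WT NKT17 and 11.5, 7.68 and 4.50 CPM in SKG NKT17 (log2 fold change -1.55 with an SE of 0.32, adjusted p = 0.00286 by edgeR). Ccnd3 was at 108, 140.3 and 98.7 CPM in WT and 238, 211 and 249.6 CPM in SKG NKT17 (log2 fold change 1.01 with an SE of 0.13, adjusted p = 1.25e-05 by edgeR), and it reached 1042, 868 and 837 CPM in WT NKT1. Among the 6 tested inhibitors of these kinases, Cdkn1b, for p27, was higher in SKG NKT2 at 40.3, 42.5 and 36.9 against 20.4, 28.5 and 27 CPM (log2 fold change 0.65 with an SE of 0.16, adjusted p = 0.0123 by edgeR), and Cdkn2d, for p19, was higher in SKG NKT17 at 99.0, 86.0 and 115 against 50.2, 69.4 and 63.4 CPM (log2 fold change 0.71 with an SE of 0.18, adjusted p = 0.0152 by edgeR). Cdkn2b, for p15, was lower in both, with means of 11.9 and 2.68 CPM in WT and SKG NKT2 and 1.63 and 0.222 CPM in WT and SKG NKT17. In SKG NKT17 it was at 0.142, 0.523 and 0 CPM, where 3 reads come to about 0.504 CPM, so that call rests on few reads. Of the 19 E2F, pocket protein and MuvB factors, none was called in any genotype comparison by edgeR. This does not show that they were unchanged, since some were at a few CPM. Mybl2, for B-Myb, had means of 12.8 and 3.66 CPM and Foxm1 of 8.20 and 3.80 CPM in WT and SKG NKT2. The log2 fold changes of the 19 were above 0 for 10 and below for 9 in NKT2, and above for 6 and below for 13 in NKT17. In each subset 1 of them passed the adjusted p without the fold minimum. Those with an unadjusted p under 0.05 were 2 in NKT1, 4 in NKT2 and 2 in NKT17, against 13.9%, 20.9% and 21.6% of all tested genes. By the interaction terms, 1 factor had a more negative SKG effect in NKT2 than in NKT1 (tested genes 1.78%). The same number did in NKT17 than in NKT1 (tested genes 2.12%) and in NKT17 than in NKT2 (tested genes 1.05%).

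**Figure D5:**
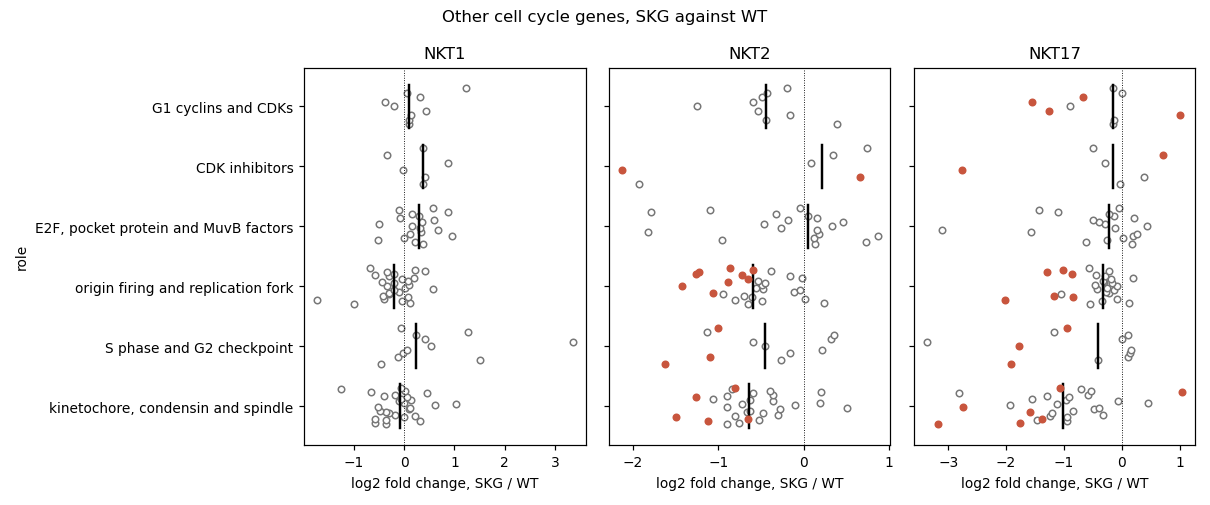
Log2 fold change of SKG against WT for the 100 tested cell cycle genes outside the members, by role, in NKT1, NKT2 and NKT17 (x axes differ between panels). Each point is a gene, filled red where called, and the vertical bar is the median of the role. The medians of the replication fork and of the kinetochore and spindle roles lie below 0 in NKT2 and NKT17, and the points for E2F and related factors are all unfilled.

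Genes of other cell types were read in the same libraries. In NKT17, where most members were lower in SKG, the sum of 7 double-positive thymocyte genes was 5.27 to 12.5 CPM in WT and 14.3 to 47.5 CPM in SKG libraries, of which Cd8b1 made up means of 6.54 and 22.5 CPM while Rag1, Rag2, Dntt and Arpp21 were at 0 in both. The sum of 5 B cell genes was 7.82 to 11.1 CPM in WT and 24.8 to 40.7 CPM in SKG NKT17, almost all of it Cd79b, with Cd79a at 0.497 and 0.544 CPM. Both sums were opposite in direction to the members. In NKT2 the double-positive sum was 1.64 to 2.45 CPM in WT and 4.18 to 5.62 CPM in SKG libraries. Myb, a gene of early iNKT precursors, was called lower as the members were, at means of 66.4 and 11.4 CPM in WT and SKG NKT2 (log2 fold change -2.54 with an SE of 0.52, adjusted p = 0.00451 by edgeR) and 51.5 and 1.65 CPM in WT and SKG NKT17 (log2 fold change -5.003 ± 0.64 SE, adjusted p = 6.39e-05). The whole precursor list of 5 genes was at 136 to 215 CPM in WT and 76.8 to 153 CPM in SKG NKT2. In NKT17 it was at 97.4 to 178 CPM in WT and 69.3 to 95.6 CPM in SKG. Its defining gene Cd24a was at 0 to 0.369 CPM in these groups. Much of the NKT2 difference in the sum was Myb itself. In WT and SKG NKT2, Cd69 was at 20.2 and 29.4 CPM, opposite in direction, Egr2 at 70.3 and 63.1 CPM and Sox4 at 7.35 and 2.81 CPM. In WT and SKG NKT17 they were at 67.6 and 59.7, 25.4 and 16.2, and 3.99 and 1.86 CPM. None of these was called in either subset. In NKT1 the precursor list overlapped between genotypes, at 243 to 298 and 201 to 271 CPM. Myeloid genes stayed at or under 14.2 CPM in sum and red cell genes at or under 1.45 CPM in all libraries. Genes within the subset lists also moved with the genotype while their sum stayed level. In NKT17, Ccr6 was at means of 12 and 592 CPM in WT and SKG (log2 fold change 5.62 with an SE of 0.47, adjusted p = 5.32e-06 by edgeR), Il23r at 454 and 245 CPM (adjusted p = 0.000314) and Il1r1 at 467 and 233 CPM (adjusted p = 0.0727). The part of these shifts in the results above was not tested.

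The titles of the libraries carry a number that some WT and SKG libraries share, and what it stands for is not given. Within the numbers 7_10 and 7_11, the S phase sum of the SKG library was 60.4% and 53% of its WT partner in NKT2, 73.4% and 63.1% in NKT17, and 86.3% and 74.4% in NKT1. The mitosis sum was 101% and 49.4% in NKT2, 70.9% and 43.2% in NKT17, and 80.8% and 112% in NKT1. The S phase sum was thus lower in SKG in every such pair, and the mitosis sum was lower in both pairs in NKT17 alone. By single members, 32 and 26 of 46 were lower in the SKG library in NKT1, 33 and 46 in NKT2, and 37 and 46 in NKT17. The same counts were not made over all tested genes, so they are not read as particular to the members.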

How the data were processed

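RNA was measured in 18 libraries of sorted thymic iNKT cells, made with a Smart-seq type poly-A protocol. Per the labels and methods, the authors removed tRNA, rRNA and adapter reads, aligned the rest with TopHat and deposited raw read counts per gene from HTSeq, with no normalization. The methods name mouse build mm9, while the submitters' processing notes list TopHat 1.4.1, Bowtie 1.0.0, HTSeq 0.7.1 and builds mm10 and hg19. The annotation and strand setting of the counting are not given in the sources used here, so reads of overlapping or antisense genes may be shared. The table holds 2 columns that match no listed sample, and they were not used.

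Groups came from the labels. Library totals were 4391029 to 8895917 counts, with TMM factors of 0.928 to 1.07. Genes passing filterByExpr (11118 of 15582 with a count) were fitted with edgeR 4.0.16 by robust quasi-likelihood over all 18 libraries and 6 groups, which left 12 residual degrees of freedom. The common biological variation between libraries was 21.1% (BCV). P-values were adjusted by Benjamini-Hochberg over all tested genes. A call needed an adjusted p under 0.1 and a fold of at least 1.5, as in the study's methods. The fit was tested on simulated data. Levels per kilobase used exon lengths of GENCODE M1 on NCBIM37, and promoters came from RefSeq on GRCm38.p6. No SD or test here covers more than the spread of these libraries, and limits from read numbers cover counting error only.

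The members were named by role without using measured values, but they and the lists were chosen with earlier results of these data known. In the lists, 2 spellings were corrected to the table's symbols (Clspn, Emr1). Described one by one were Mki67, Top2a, Ccnb1, Pcna and Mcm5, the member of highest mean CPM in each of the 7 roles, and up to 5 called members with the largest change in each direction among those with a mean of at least 5 CPM in the higher group. Of the other cell cycle genes, up to 3 called genes per role with the smallest adjusted p were described. Genes named beyond these were chosen after their values were seen.

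Alternatives were DESeq2 1.42.0, RLE and upper-quartile scaling, looser and stricter count filters, other thresholds, a fit of only the libraries compared, the title number as a block, and each library left out in turn. The other thresholds were applied to counts of calls. Whether a single call held was read at the main thresholds, in the fits that tested the gene. R was 4.3.3 and limma 3.58.1. The title numbers paired the samples of WT NKT17 and NKT2, where deviations of libraries with the same number correlated at 0.219 to 0.351 in 3 pairs. This pairing is inferred from the data, since the labels do not say what the numbers mark.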

Additional observations from a re-analysis of the deposited data

Results flagged for a closer look

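For 15 gene and subset pairs the effect of the SKG mutation differed between subsets by the interaction term of the edgeR fit, and each is given as the difference of log2 fold changes with its SE and edgeR adjusted p.

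Between NKT2 and NKT1 the SKG effect was more negative in NKT2 for 5 genes. The difference was -1.74 ± 0.40 for Uhrf1 (adjusted p = 0.0157), -1.03 ± 0.30 for Stmn1 (adjusted p = 0.0767), -0.89 ± 0.20 for Mcm7 (adjusted p = 0.0123), -0.89 ± 0.26 for Mcm5 (adjusted p = 0.0812) and -0.86 ± 0.21 for Mcm6 (adjusted p = 0.0253). For 4 of these 5, the gene codes for the MCM helicase or the chromatin of newly copied DNA. Of the 5, the calls of Uhrf1, Mcm7 and Mcm6 held under every alternative.

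Between NKT17 and NKT1 the SKG effect was more negative in NKT17 for 10 genes. Among the general markers and S phase genes the difference was -2.43 ± 0.46 for Mki67 (adjusted p = 0.00341), -1.44 ± 0.30 for Stmn1 (adjusted p = 0.0125), -0.78 ± 0.20 for Mcm3 (adjusted p = 0.0341) and -1.31 ± 0.40 for Uhrf1 (adjusted p = 0.087). Among the mitosis genes it was -3.10 ± 0.95 for Ncapg (adjusted p = 0.0911), -2.52 ± 0.71 for Ect2 (adjusted p = 0.0606), -2.41 ± 0.71 for Cenpe (adjusted p = 0.0712), -2.37 ± 0.67 for Plk1 (adjusted p = 0.0608), -1.77 ± 0.46 for Top2a (adjusted p = 0.0493) and -1.65 ± 0.48 for Ccna2 (adjusted p = 0.0695). Of the 10, only the calls of Mki67 and Stmn1 held under every alternative. Stmn1 and Uhrf1 passed in both, and both tests use the same NKT1 libraries.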

How the results depend on the processing

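Over 210 pairs of a called member and a comparison, 2789 values under the alternatives other than thresholds gave 0 reversals, 2519 kept the call and 270 lost it. Counts of called members moved by more than 1.5 times as follows. For SKG against WT in NKT1 the 3 calls became 1 at an adjusted p under 0.05, 1 with only the libraries compared and 1 with the title number as a block. For SKG against WT in NKT2 the 12 became 19 with only the libraries compared. The 11 between NKT1 and NKT17 in WT became 7 at an adjusted p under 0.05 and 7 with only the libraries compared. The 5 interaction calls of NKT2 and NKT1 became 3 at an adjusted p under 0.05, and the 10 of NKT17 and NKT1 became 4 at that threshold and 5 with only the libraries compared. The cause was not tested.

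With 1 library left out at a time, the called members numbered 0 to 2 for SKG against WT in NKT1 (without SKG replicate 3, Plk1 higher and 1 lower), 8 to 13 in NKT2 and 18 to 28 in NKT17. In WT they numbered 32 to 35 for NKT1 against NKT2, 6 to 9 for NKT1 against NKT17 and 28 to 36 for NKT17 against NKT2, and in SKG 16 to 24, 13 to 21 and 32 to 35 in the same order. The interaction calls numbered 3 to 8 for NKT2 and NKT1, 3 to 13 for NKT17 and NKT1 and 0 for NKT17 and NKT2.

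In the replicate block, NKT2 calls numbered 9 (without Cdc6, Tyms and Nusap1) and NKT17 calls 19 (without Tk1, Uhrf1, Plk1, Birc5, Cdca8, Cdca3 and Kif23), but WT and SKG shared only 2 title numbers in each subset, and libraries sharing one correlated at -0.151 to 0.09. In other comparisons the block changed 4 counts, to 10 for NKT1 against NKT17 in WT (without Tk1), 36 for NKT17 against NKT2 in WT, 6 for the interaction of NKT2 and NKT1 (with Mcm3), and 9 for that of NKT17 and NKT1 (without Uhrf1 and Ccna2, with Rrm2). Between NKT1 and NKT17 in SKG the count was the same, with Rrm2 in place of Cenpe.

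The sign of values near 0 turned in a few cases. The log2 fold change of Ezh2 in NKT1 ranged from -0.008 without WT NKT1 replicate 2 to 0.378 without replicate 3. That of Ccnb1 in NKT1 was 0.063 with the block and ranged from -0.452 without WT NKT1 replicate 2 to 0.702 without replicate 3, and in NKT2 it was 0.009 with only the libraries compared, 0.165 with the block, 0.008 and 0.029 without WT NKT2 replicates 1 and 3, 0.182 without SKG NKT2 replicate 2 and, keeping its sign, -0.22 without SKG NKT2 replicate 1.

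Over all tested genes, 364 calls for SKG against WT in NKT1 became 207 with only the libraries compared, and 931 in NKT17 became 1398 without a fold minimum. Interaction calls of 464 for NKT17 and NKT1 became 278 at an adjusted p under 0.05 and 296 without SKG NKT17 replicate 3, and 244 for NKT17 and NKT2 became 155 at that threshold and 157 without SKG NKT17 replicate 1. Upper-quartile scaling moved the median of all genes by -0.10 for NKT1 against NKT2 in WT, and that of the members from -1.33 to -1.43. With 3 libraries a group, mitosis genes at a few CPM had the widest errors.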
